A study of Mus musculus with 18 samples.

Results

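The apolipoprotein L cluster of the mouse was followed in donor T cells 7 days after transplantation. Its 10 members, Apol6, Apol7a, Apol7b, Apol7c, Apol8, Apol9a, Apol9b, Apol10a, Apol10b and Apol11b, were taken by symbol from the 46073 genes of the count table. The family was picked because some members were low in syngeneic Wapl KO libraries in an earlier look at these data. The difference between syngeneic KO and syngeneic WT therefore chose the members. Its values, and the count of members past a threshold in it, are given as a description only. Wapl is the factor that releases cohesin from chromatin, and the study compared donor T cells with it (WT) and without it (KO) in both transplant settings.

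Each of the 4 groups had 3 libraries, labelled as biological triplicates, each from the pooled spleens of 2 to 4 recipients. All donors were C57BL/6 (CD45.2) mice and all recipients were CD45.1 mice, 8 to 12 weeks old and female per the labels. Syngeneic recipients were B6.SJL-Ptprca Pepcb/BoyJ mice given 9.5 Gy, and allogeneic recipients were CByJ.SJL(B6)-Ptprca/J mice, of BALB/c background, given 8 Gy. All received T cell depleted marrow and splenic donor T cells, and the labels give different T cell numbers for the settings. The donor T cells were enriched and then sorted as live CD3+ CD45.2+ cells, and total RNA (100 ng per library) was sequenced after ribosomal RNA depletion. The cell type field of the syngeneic KO samples names the allogeneic recipient strain, although their transplant type is syngeneic, and they were grouped by transplant type. The Cre line, the deleted exons and the genotype of the marrow are not given in the sources used here. The 6 naive samples were not analysed here.

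Apolipoprotein L proteins share a name with the apolipoproteins of blood lipoproteins but are a separate family. Most are intracellular proteins that associate with membranes, and the human member APOL1 is the secreted exception that kills trypanosomes. The genes lie in tandem, have duplicated separately in rodents and primates, and several respond to interferons. Mouse Apol9a and Apol9b are near copies known as interferon-induced lipid-binding proteins. Apol7c is known from dendritic cells, where it acts on the membrane of phagosomes.

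All 10 members lie on chromosome 15 between 77044729 and 77757003 (GRCm38, GENCODE M21). Without Apol6 they span 368.8 kb, and Apol6 lies 331.1 kb from the nearest other member. Of the members, 3 are on the plus strand and 7 on the minus strand. The table held 3 further Apol rows, Apol7e and Apol11a inside the cluster and Apol7d. The Apol7d identifier lies on chromosome 1 antisense to exons of Fn1 and was left out of the cluster. The cluster ends at Apol8, whose start is 3583 bases from the 3′ end of Myh9, a non-muscle myosin heavy chain gene on the same strand.

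Promoters from RefSeq (GRCm38.p6) were found for 11 of the 12 cluster genes in the table, and none was matched for Apol6. The 250 bases before the start of Apol11b, Apol10a and Apol8 are shown because these 3 members were by far the highest in syngeneic WT libraries. Those of Apol10b and Apol9b are shown as members of lower level. Capitals mark the letters GAAANNGAAA (an interferon-stimulated response element, ISRE) or TTCNNNGAA (a gamma-activated site, GAS), searched on both strands, with overlapping matches joined. These motifs were chosen after the values were seen.
Apol11b, chr15:77643287-77643536, minus strand: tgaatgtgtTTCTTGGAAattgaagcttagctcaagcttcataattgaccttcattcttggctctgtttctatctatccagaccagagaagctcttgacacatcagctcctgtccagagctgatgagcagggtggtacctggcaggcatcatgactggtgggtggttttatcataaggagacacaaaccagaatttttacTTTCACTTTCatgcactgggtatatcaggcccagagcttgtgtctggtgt
Apol10a, chr15:77476797-77477046, plus strand: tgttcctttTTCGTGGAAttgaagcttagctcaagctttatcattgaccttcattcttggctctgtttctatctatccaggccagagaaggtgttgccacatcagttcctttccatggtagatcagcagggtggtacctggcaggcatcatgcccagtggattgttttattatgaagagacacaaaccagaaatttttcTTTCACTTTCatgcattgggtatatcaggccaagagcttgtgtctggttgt
Apol8, chr15:77757011-77757260, minus strand: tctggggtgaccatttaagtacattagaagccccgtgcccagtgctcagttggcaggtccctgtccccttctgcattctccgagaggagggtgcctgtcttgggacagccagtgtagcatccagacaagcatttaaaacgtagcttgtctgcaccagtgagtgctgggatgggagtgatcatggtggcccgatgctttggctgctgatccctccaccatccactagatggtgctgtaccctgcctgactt
Apol10b, chr15:77596126-77596375, minus strand: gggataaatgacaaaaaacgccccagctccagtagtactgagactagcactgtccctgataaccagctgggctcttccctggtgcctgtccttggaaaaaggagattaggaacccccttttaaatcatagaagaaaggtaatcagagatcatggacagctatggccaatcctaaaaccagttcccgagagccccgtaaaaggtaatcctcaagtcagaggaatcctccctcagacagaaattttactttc
Apol9b, chr15:77728822-77729071, plus strand: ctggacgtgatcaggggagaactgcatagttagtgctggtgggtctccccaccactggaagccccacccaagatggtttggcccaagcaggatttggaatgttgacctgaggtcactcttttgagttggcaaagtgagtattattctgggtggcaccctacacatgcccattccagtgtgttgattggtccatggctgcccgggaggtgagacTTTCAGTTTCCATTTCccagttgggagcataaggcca
The upstream bases of Apol11b and Apol11a were 100.0% identical, and those of Apol11b and Apol10a 86.9%. Apol8 shared 48.8% with Apol11b.

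ISRE letters stood within 250 bases before to 50 after the start of 8 of the 11 cluster genes, against 3.4% of 32851 promoters of the same length. The 8 were Apol7c, Apol7e, Apol9a, Apol9b, Apol10a, Apol10b, Apol11a and Apol11b. In Apol11b the match ran from 50 to 41 bases before the start and in Apol10a from 51 to 42. Apol9b had overlapping matches from 37 to 28 and from 31 to 22 bases before its start, and the match of Apol10b was not wholly within the 250 bases shown. GAS letters were found in Apol10a, Apol11a and Apol11b alone among the 11, against 8.3% of all promoters. Apol8, Apol7a and Apol7b held neither set of letters. The letters AGATAA and CACACCC, which are bound by GATA and Krüppel-like factors, were in none of the 11, against 11.2% and 8.0% of all promoters. Only these exact letters were searched, so a lack of sites for these factors is not shown. The related GATA letters TGATAA were not searched. They stand in the bases shown for Apol10b and, as TTATCA on the other strand, for Apol11b and Apol10a. Near copies share these matches, so the genes are not independent, and a match is a description of the letters and not evidence of binding.

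Library totals ran from 45965659 to 89007100 counts, and 18447 genes passed the filter on low counts. Levels below are in CPM, the counts of a gene relative to the TMM-scaled size of its library. Wapl, listed as Wapal, stood at 170 to 211 CPM in WT and 127 to 139 in KO libraries of the syngeneic setting, and 156 to 169 in WT and 124 to 151 in KO libraries of the allogeneic setting. Whether the counted part of Wapal lies in the deleted part is unknown. Markers of T cells were present in every library, with 8 genes summing to between 2345 and 4667 CPM. The 3 syngeneic WT libraries stood apart from the other 9 in carrying mRNAs of red cell precursors: 11 markers summed to 2223, 5178 and 4439 CPM there, and to between 19.7 and 130 CPM in the other 9. None of the 11 was at 0 in all libraries of a group, and Ahsp and Epb42 were not matched in the table. In these bulk libraries, fewer cells of a type and less RNA per cell cannot be told apart.

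Apol11b carried most of the family's RNA in syngeneic WT libraries, at 44, 82.5 and 97.7 CPM in replicates 1, 2 and 3. It stood at 0.442, 0.12 and 0.853 CPM in syngeneic KO, at 0.607, 0.265 and 0.541 in allogeneic WT and at 0.446, 0.701 and 0.449 in allogeneic KO. The syngeneic WT libraries were thus separated from the other 9 with no overlap, and those 9 overlapped one another. In syngeneic KO the log2 difference from WT was −7.33 ± 0.57 (SE), and in allogeneic WT the difference from syngeneic WT was −7.35 ± 0.57. The gene made up 63.2 to 66.1% of the summed CPM of the 10 members in syngeneic WT libraries, and 2.32 to 20.3% in the other libraries.

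Apol10a was likewise high in the syngeneic WT libraries alone, at a lower level than Apol11b. Its syngeneic WT values were 5.2, 9.72 and 13.2 CPM, against 0.0603, 0.0172 and 0.0198 in syngeneic KO. Allogeneic WT libraries held 0.121, 0.0407 and 0.0676 CPM and allogeneic KO libraries 0.0469, 0.234 and 0.0579. No library outside syngeneic WT had more than 14 counts of this gene, and the 3 syngeneic KO libraries had 5 counts in all against 1675 in the 3 syngeneic WT libraries. The log2 difference was −8.11 ± 0.69 between syngeneic KO and WT and −6.97 ± 0.62 between allogeneic and syngeneic WT. Apol10a passed the filter through the syngeneic WT libraries alone, so a difference between these and the rest was built into its being tested.

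Apol8 was the second most abundant member, at 15.4, 33.9 and 32.1 CPM in syngeneic WT. Elsewhere its values were 2.43, 2.48 and 1.37 CPM in syngeneic KO, 0.972, 1.69 and 0.524 in allogeneic WT and 0.751, 0.601 and 0.94 in allogeneic KO. Syngeneic WT lay above all other libraries, and every syngeneic KO library lay above every allogeneic KO library. The log2 difference was −3.69 ± 0.43 between syngeneic KO and WT and −4.65 ± 0.45 between allogeneic and syngeneic WT. Its smaller differences than those of Apol11b and Apol10a were not tested against theirs.

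**Figure D1:**
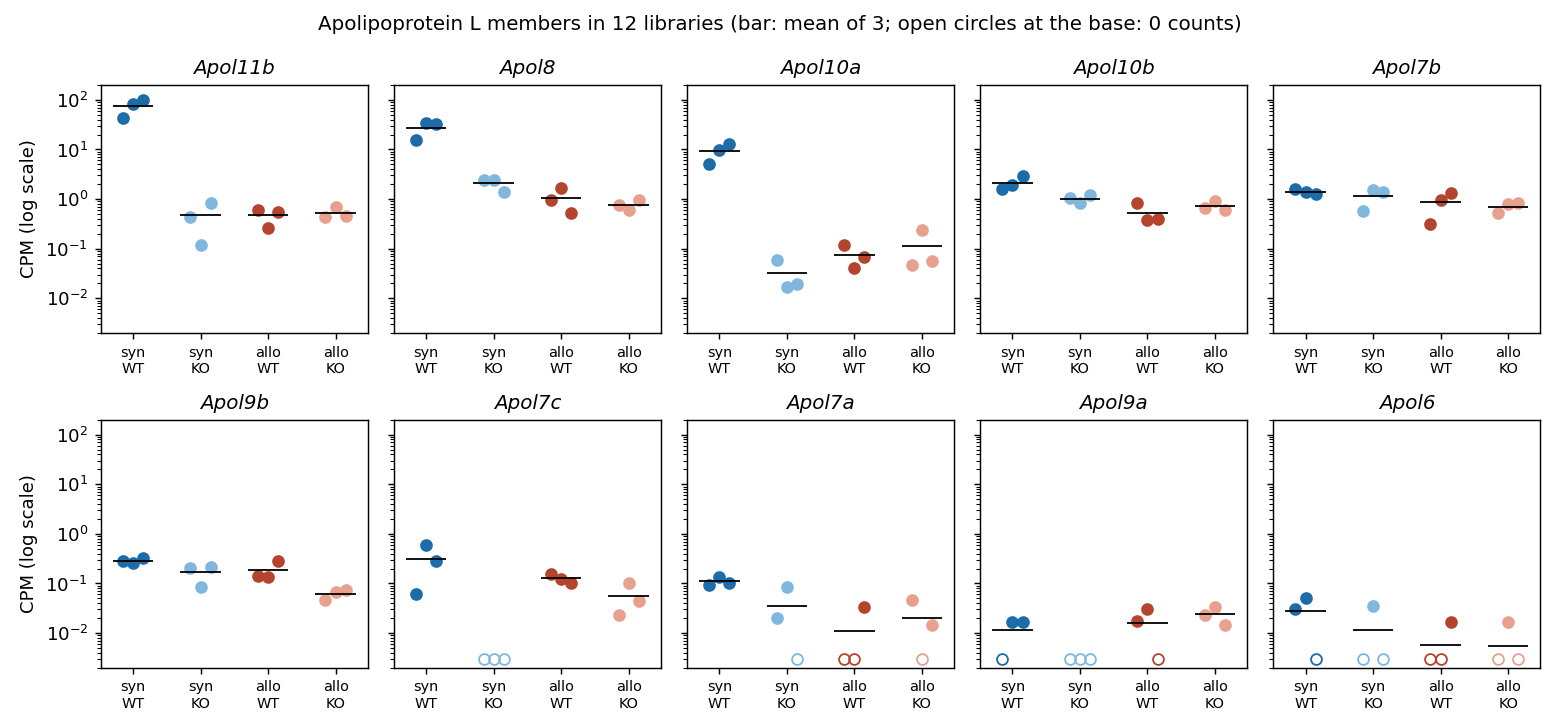
Level of each of the 10 members in CPM (log axis) in every library, by group, with bars at the mean of 3 libraries and open circles at the base for libraries with 0 counts. Apol11b, Apol8 and Apol10a in syngeneic WT (44 to 97.7, 15.4 to 33.9 and 5.2 to 13.2 CPM) stand clear of the other 9 libraries. Apol7b (0.312 to 1.6 CPM) and Apol9b (0.0469 to 0.324) span narrower ranges over all libraries than these 3, and Apol9b is lowest in allogeneic KO.

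Together these 3 genes gave 94.6 to 96.7% of the members' summed CPM in syngeneic WT libraries and 34.2 to 61.1% in the other libraries. The summed level of all 10 members was 116 ± 41.8 CPM (SD, n = 3) in WT and 5.01 ± 0.195 in KO libraries of the syngeneic setting, and 3.36 ± 0.237 in WT and 3.01 ± 0.448 in KO libraries of the allogeneic setting. Within syngeneic WT, replicate 1 was the lowest library for all 3 genes. It was also the lowest of the 3 for the summed red cell precursor markers and for the 12 macrophage and monocyte markers, at 55.8 CPM against 199 and 185. The same held for the neutrophil, B cell, platelet, natural killer cell and conventional dendritic cell markers. Replicate 1 was the highest for the T cell markers (3159 CPM against 2345 and 2456) and the plasmacytoid dendritic cell markers (85.5 against 77.5 and 77.4). The part of any of these lists in the 3 genes was not tested.

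Apol10b differed less between groups. It stood at 1.63, 1.95 and 2.88 CPM in WT and 1.07, 0.825 and 1.19 in KO libraries of the syngeneic setting, and 0.833, 0.377 and 0.389 in WT and 0.657, 0.917 and 0.593 in KO libraries of the allogeneic setting. Its lowest syngeneic WT library lay 1.37 times above its highest syngeneic KO library. The log2 difference was −1.07 ± 0.36 between syngeneic KO and WT, and −1.08 ± 0.38 with replicate number as a block. Between allogeneic and syngeneic WT it was −2.02 ± 0.37.

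Apol9b, an interferon-induced member, was low in all 12 libraries. It would not have passed the filter without the syngeneic WT libraries, so a difference from these was partly built into its being tested. It stood at 0.28, 0.257 and 0.324 CPM in WT and 0.201, 0.0859 and 0.218 in KO libraries of the syngeneic setting, and 0.139, 0.132 and 0.287 in WT and 0.0469, 0.0667 and 0.0723 in KO libraries of the allogeneic setting. The allogeneic KO libraries were the lowest of all 12 and held 2, 4 and 5 counts. Of the 50-base windows of its exons, 52.3% also occur in another family gene, most of them in Apol9a, so reads of the pair may have been divided in counting. Apol9a itself had 10 counts over all 12 libraries and none in syngeneic KO, and no fold is given for it.

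Apol7b was near 1 CPM throughout, at 1.6, 1.39 and 1.26 CPM in WT and 0.583, 1.55 and 1.39 in KO libraries of the syngeneic setting, and 0.312, 0.967 and 1.35 in WT and 0.516, 0.784 and 0.825 in KO libraries of the allogeneic setting. Its syngeneic groups overlapped. It shares 71.1% of its 50-base windows with other family genes, chiefly Apol7e, so its level is uncertain. Apol7e, which is no member, stood at 15.3 ± 3.82, 17.9 ± 3.79, 12.2 ± 1.81 and 12.7 ± 3.38 CPM (SD, n = 3), with the groups in the order used above. Apol11a, the other cluster gene outside the members, stood at 0.902, 2.04 and 2.95 CPM in syngeneic WT and at no more than 0.0334 in any other library. It shares 18.0% of its windows with family genes, chiefly Apol11b, and the identical upstream sequence.

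Apol6, Apol7a, Apol7c and Apol9a did not pass the filter. Apol6 had 9 counts over all libraries, and its exons overlap those of Mb, which had 0. Apol7a had 31 counts, of which 20 were in WT and 6 in KO libraries of the syngeneic setting, and 2 in WT and 3 in KO libraries of the allogeneic setting. Apol7c had 4, 35 and 17 counts in syngeneic WT, 9, 12 and 6 in allogeneic WT, 1, 6 and 3 in allogeneic KO and 0 in each syngeneic KO library. Against a floor of 3 counts over the syngeneic KO group (0.0189 CPM), its pooled level was at least 16.3-fold higher in syngeneic WT, at least 6.63-fold higher in allogeneic WT and at least 3.07-fold higher in allogeneic KO. Floors cover counting error only. The 8 conventional dendritic cell markers summed to 19.1 to 33.2 CPM in WT and 14.1 to 33.9 in KO libraries of the syngeneic setting, and 154 to 207 in WT and 119 to 277 in KO libraries of the allogeneic setting. Most of the allogeneic sum came from Itgax (CD11c, an integrin chain), at 11.9 ± 2.92 CPM (SD, n = 3) in syngeneic WT and 177 ± 28.6 in allogeneic WT. Other markers of the list went the other way in allogeneic WT: Clec9a fell (−2.81 ± 0.82 on the log2 scale), and Flt3 (−2.79 ± 1.09) and Zbtb46 (−0.82 ± 0.33) had negative differences that did not pass. The part of these markers in the counts of Apol7c was not tested.

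Levels of different members can be compared after division by exon length. In syngeneic WT the order of mean CPM per kb was Apol11b (30.3 ± 11.2, SD), Apol8 (9.16 ± 3.44), Apol10a (3.09 ± 1.32), Apol10b (0.927 ± 0.278) and Apol7b (0.581 ± 0.071), and the library ranges of neighbours in this order did not overlap. Apol9b (0.157), Apol7c (0.154) and Apol7a (0.0366) came next, with Apol7c overlapping both, followed by Apol6 (0.00611) and Apol9a (0.00191). In syngeneic KO the order per kb was Apol8 (0.706 ± 0.212), Apol7b (0.481 ± 0.212), Apol10b (0.442 ± 0.0798), Apol11b (0.192 ± 0.149) and Apol9b (0.0925 ± 0.0395). Apol8 and Apol7b overlapped there, as did Apol7b and Apol10b and also Apol11b and Apol9b. In both allogeneic groups Apol7b, Apol8, Apol10b and Apol11b lay within 0.191 to 0.36 CPM per kb on average. In allogeneic KO their library ranges, taken from one to the next, overlapped.

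The comparison of syngeneic KO with syngeneic WT is the one that chose the family. Of the 6 members tested, 3 (Apol8, Apol10a and Apol11b) passed the threshold as lower and 0 as higher, where 2.63% of all tested genes passed as lower, and nothing is read from this count. A gene passed at an adjusted p under 0.05 in edgeR's quasi-likelihood test, adjusted over all tested genes. For 5 of the 6 every KO library was below every WT library, where 10.1% of all tested genes were separated in that direction. By log2 difference Apol10a was the number 3 and Apol11b the number 8 most negative of 18447 genes, and Apol8 number 179. The least separated of these 5 was Apol9b (−0.77 ± 0.47), and Apol7b overlapped (−0.27 ± 0.46). Of these 5, Apol10a and Apol9b owed their being tested to the syngeneic WT libraries, so nothing is read from this count either. Apol7c did not pass the filter. It was called as lower by DESeq2 and by edgeR without the filter (−7.25 ± 1.34, adjusted p = 0.00549), on 0 counts in syngeneic KO and 56 in syngeneic WT.

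The comparison of allogeneic WT with syngeneic WT uses the same syngeneic WT libraries and is likewise a description. Apol8, Apol10a, Apol10b and Apol11b passed as lower, 4 of 6, where 15.9% of all tested genes did. The differences of Apol7b (−0.69 ± 0.47) and Apol9b (−0.64 ± 0.45) did not pass. Both comparisons were therefore set by the same 3 high libraries, and their values are given side by side only.

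**Figure D2:**
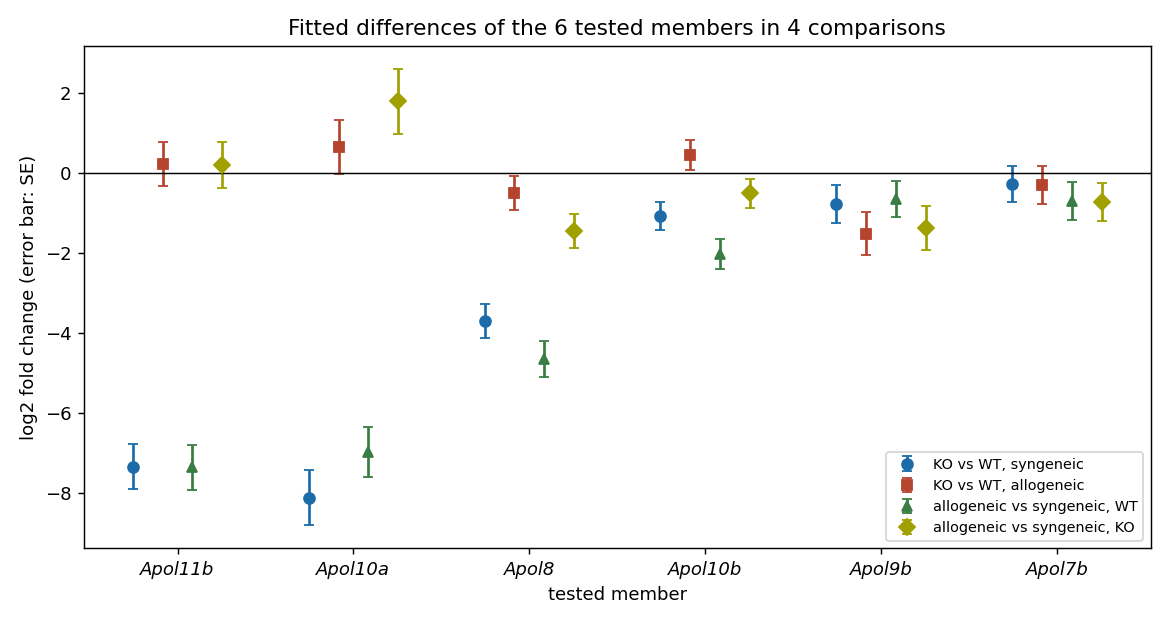
Fitted log2 difference of the 6 tested members in 4 comparisons, with bars of 1 standard error. Apol11b, Apol10a and Apol8 lie between −8.11 and −3.69 in the comparisons with syngeneic WT, and between −1.45 and 1.80 in the comparisons without it, while Apol9b and Apol7b lie between −1.51 and −0.27 in all 4.

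Loss of Wapl in allogeneic recipients is the comparison that did not share libraries with the choice of members. The filter did draw on the syngeneic libraries. With the 6 allogeneic libraries alone, 4 members passed the filter, and Apol10a and Apol9b did not. None of the 6 tested members passed the threshold in edgeR's quasi-likelihood test, 1 reached an unadjusted p under 0.05, none was called by DESeq2, and 0.0542% of all tested genes passed. The log2 differences between KO and WT were 0.23 ± 0.56 for Apol11b (adjusted p = 0.983), 0.66 ± 0.68 for Apol10a (adjusted p = 0.963) and −0.49 ± 0.43 for Apol8 (adjusted p = 0.963). Those of Apol10b and Apol7b were 0.45 ± 0.37 and −0.30 ± 0.47. All 5 overlapped between groups. Apol10a had 15 counts in WT and 20 in KO, of which 14 were in KO replicate 2. Apol9b had the largest difference of the 6, −1.51 ± 0.53, with an unadjusted p of 0.014 and an adjusted p of 0.963 (edgeR). Its 3 KO libraries lay below its 3 WT libraries, where 4.37% of all tested genes did so, and it rests on 11 counts in KO and 38 in WT.

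In KO donors, allogeneic and syngeneic libraries were compared with the syngeneic KO libraries that also entered the choice of members. Apol8 was the 1 member of 6 that fell, where 11.2% of all tested genes did. It differed by −1.45 ± 0.43 on the log2 scale (adjusted p = 0.0265, edgeR) and was lower in 3 of 3 allogeneic libraries. It and Apol9b, 2 of 6, did not overlap between these groups, where 16.6% of all tested genes lay wholly lower. The call was lost on leaving out replicate 1 or 2 of either group, with adjusted p of 0.0686 and 0.0889 without syngeneic KO replicates 1 and 2 and of 0.0717 and 0.115 without allogeneic KO replicates 1 and 2. The syngeneic KO library with the most red cell precursor mRNA, replicate 3 with 130 CPM, had the lowest Apol8 of its group. In syngeneic WT it was the library with the least, replicate 1 with 2223 CPM, that had the lowest Apol8. These orders rest on 3 libraries each, and the part of red cell precursor mRNA in Apol8 was not tested.

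The remaining tested members did not pass in this comparison. Apol9b (−1.37 ± 0.54, adjusted p = 0.0849 by edgeR) was lower in all 3 allogeneic KO libraries, Apol7b (−0.72 ± 0.47) and Apol10b (−0.50 ± 0.36) overlapped, and Apol11b differed by 0.21 ± 0.58 (adjusted p = 0.826). Apol10a differed by 1.80 ± 0.81 (adjusted p = 0.128 by edgeR), on 5 counts in syngeneic KO and 20 in allogeneic KO. Of the 20, 14 were in allogeneic KO replicate 2, and the difference was 0.76 ± 0.83 without that library. Apol7c, left untested by the filter, was called as higher by DESeq2 alone.

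**Figure D3:**
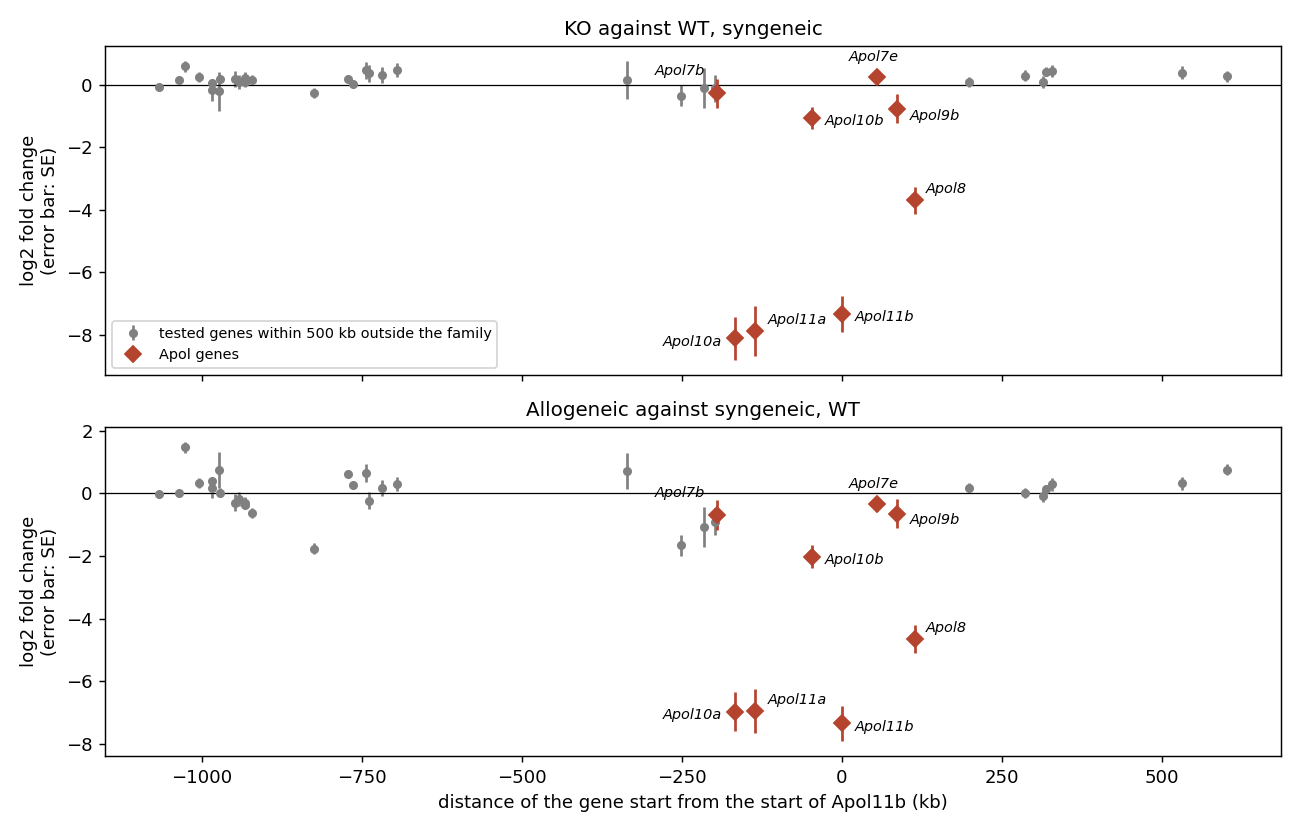
Fitted log2 difference (bars, 1 standard error) of the tested cluster genes and of the 31 tested genes within 500 kb of a member, by distance of the gene start from that of Apol11b in kb, for the 2 comparisons with syngeneic WT. Flanking genes lie between −0.35 and 0.59 in the syngeneic KO comparison, Apol7e lies among them, and the value of Apol11a rests on 1 count in syngeneic KO and 3 in allogeneic WT.

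Around the cluster, of 62 annotated genes within 500 kb of a member, 31 were tested. In syngeneic KO none of the 31 passed in edgeR's test, where 3.37% of all tested genes passed in either direction, while the unadjusted p was under 0.05 for 3 and DESeq2 called 1 as higher. Their log2 differences ran from −0.35 to 0.59 with a median of 0.16, against 0.06 over all tested genes. In allogeneic KO none passed with edgeR or DESeq2, and 0 had an unadjusted p under 0.05. Myh9, next to Apol8, stood at 3339 ± 342 CPM (SD, n = 3) in syngeneic WT and 3517 ± 83.6 in syngeneic KO, a log2 difference of 0.07 ± 0.16. Between allogeneic and syngeneic WT 4 of the 31 flanking genes were higher and 4 lower, where 16.4% of all tested genes were higher and 15.9% lower. The 8 ran from Slc39a4, a zinc transporter, at 1.47 ± 0.17 to Arhgap39 at −1.76 ± 0.17.

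Since several Apol genes respond to interferons, 32 interferon-stimulated genes were followed beside them, of which 31 were tested. In syngeneic KO 1 of 31 fell and 0 rose, where 2.63% of all tested genes fell. The median log2 difference was −0.11 against 0.06 over all tested genes. The 1 gene was Rsad2 (viperin, an antiviral enzyme), at 124 ± 40.3 CPM (SD, n = 3) in WT and 9.69 ± 3.7 in KO libraries of the syngeneic setting, and 5.76 ± 1.35 in WT and 4.77 ± 0.897 in KO libraries of the allogeneic setting, a difference of −3.68 ± 0.32 in syngeneic KO. DESeq2 called 4 of the 31 as lower there. In allogeneic KO none of the 31 passed with edgeR or DESeq2, and 2 had an unadjusted p under 0.05. In allogeneic against syngeneic WT 17 of the 31 were lower and 1 higher, where 15.9% and 16.4% of all tested genes were (median −0.54 against −0.03). In allogeneic against syngeneic KO 14 were lower and 2 higher, where 11.2% and 13.2% of all tested genes were (median −0.53 against −0.02). The summed level of the list was 1824 to 2066 CPM in syngeneic WT and 1200 to 1439 in allogeneic WT, but overlapped between syngeneic KO (1194 to 2383) and allogeneic KO (1191 to 1388). In KO donors Oasl1 (−1.79 ± 0.23, adjusted p = 0.000115) and Usp18 (−1.92 ± 0.31, adjusted p = 0.000667), which limits interferon signalling, were among those that fell in edgeR's test.

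Of 20 interferon gamma and NF-kB response genes, 0 passed in either KO comparison in edgeR's test, with 3 (syngeneic) and 1 (allogeneic) at an unadjusted p under 0.05 and 1 and 0 called by DESeq2. Of these 20, 5 rose and 2 fell in allogeneic WT against syngeneic WT, and 1 rose and 1 fell in the same comparison of KO libraries, against the shares of all genes just given for the interferon-stimulated list. Of 8 tested interferon and receptor genes, 0 passed in either KO comparison with edgeR or DESeq2, with 0 (syngeneic) and 2 (allogeneic) at an unadjusted p under 0.05. Of these 8, 4 rose and 3 fell in allogeneic WT, and 3 rose and 3 fell in allogeneic KO, against the same shares of all genes. The apolipoproteins of blood lipoproteins and their relatives were mostly low, and 6 of 14 were tested. None of the 6 passed in either KO comparison with edgeR or DESeq2, and 0 had an unadjusted p under 0.05. In KO donors Apobr, a receptor for apolipoprotein B, was higher in allogeneic libraries (1.12 ± 0.14, adjusted p = 8.92e-05) and Apoe lower (−1.99 ± 0.61, adjusted p = 0.0313). Of 11 cohesin genes, only Wapal itself passed in syngeneic KO (−0.48 ± 0.11) and none passed in allogeneic KO with edgeR or DESeq2 (1 at an unadjusted p under 0.05), where Wapal differed by −0.20 ± 0.11.

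Markers of red cell precursors moved in the same direction as the high members. Of the 11 red cell precursor markers, 9 fell and 0 rose in syngeneic KO (median log2 difference −6.14 against 0.06 over all genes), and 11 of 11 fell in allogeneic WT against syngeneic WT (median −7.46 against −0.03). Of all tested genes 2.63% and 15.9% were lower in these comparisons, in that order. Slc4a1 (the band 3 anion exchanger) stood at 1184 ± 547 CPM (SD, n = 3) in syngeneic WT and 16.1 ± 14.2 in syngeneic KO, and Alas2 (the first enzyme of haem synthesis in red cell precursors) at 223 ± 84.8 and 2.39 ± 1.68. DESeq2 called all 11 as lower in both. In allogeneic KO against WT none of the 11 passed with edgeR or DESeq2, and 0 had an unadjusted p under 0.05. Against syngeneic KO, 2 of the 11 fell in allogeneic KO, where 11.2% of all tested genes did. The part of these cells in the levels of the members was not tested.

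Divided by the summed CPM of the 11 markers, Apol11b came to 15.9 to 22 CPM per 1000 marker CPM in WT and 3.13 to 13.2 in KO libraries of the syngeneic setting, and 8.54 to 19.4 in WT and 11.7 to 20 in KO libraries of the allogeneic setting. Its ranges overlapped between syngeneic WT and both allogeneic groups, and syngeneic KO lay below syngeneic WT. Apol10a came to 1.88 to 2.97, 0.152 to 1.8, 1.71 to 2.43 and 1.52 to 6.65 in the same order of groups. Apol8 behaved otherwise, with 6.54 to 7.23 in syngeneic WT, a narrow range, and 10.5 to 72.7, 13.7 to 85.8 and 17.1 to 29 in the other groups. Apol10b came to 0.377 to 0.735 in syngeneic WT and to between 9.12 and 31.9 elsewhere. Outside syngeneic WT, the libraries of Apol8 and Apol10b thus held more of the gene per marker CPM than those of syngeneic WT did.

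**Figure D4:**
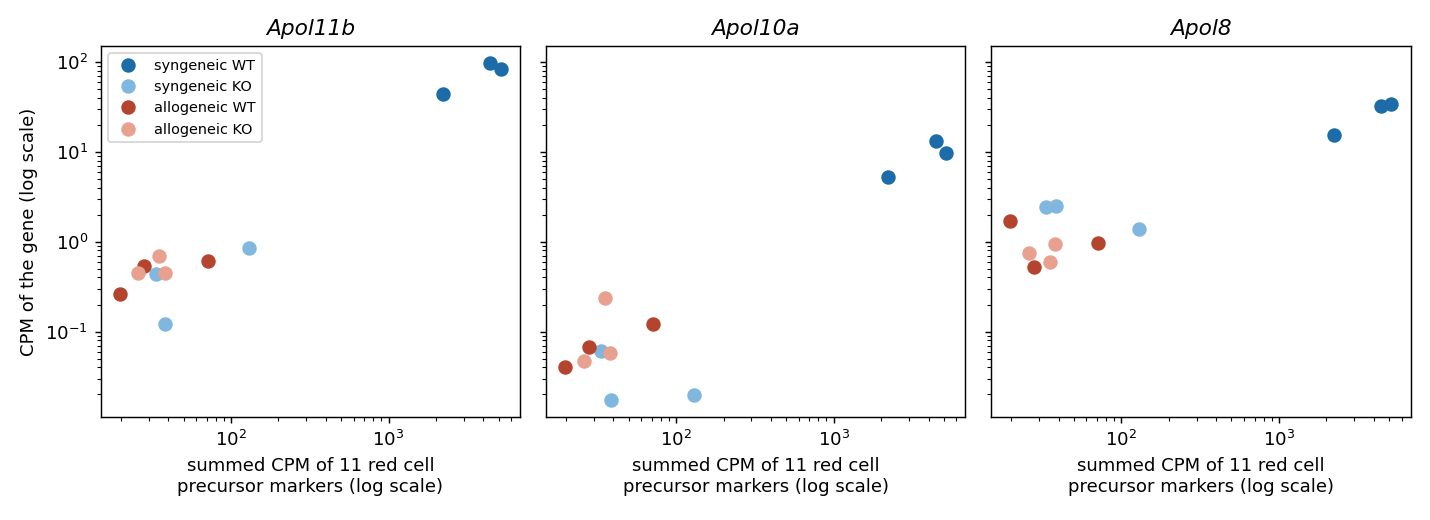
CPM of Apol11b, Apol10a and Apol8 against the summed CPM of 11 red cell precursor markers in each of the 12 libraries (both axes log), coloured by group. The 3 syngeneic WT libraries (2223 to 5178 marker CPM) form a cluster apart from the other 9 (19.7 to 130), and in the library of these 9 with the most marker CPM (130) Apol11b is at its highest of the 9 (0.853 CPM), while Apol10a and Apol8 are not.

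Other marker lists had a smaller part past the threshold in syngeneic KO, where 2.63% of all tested genes passed as lower. Of 12 macrophage and monocyte markers 7 fell in syngeneic KO, with sums of 55.8 to 199 CPM in WT and 12.3 to 41.7 in KO libraries of the syngeneic setting, and 61.6 to 86 in WT and 40.4 to 70.2 in KO libraries of the allogeneic setting. In allogeneic against syngeneic WT 8 of these 12 fell and 1 rose, where 15.9% and 16.4% of all tested genes did. Of 10 B cell markers 3 fell in syngeneic KO (57.2 to 117 CPM in syngeneic WT, 42.7 to 73.6 in KO), and of 7 neutrophil markers 1 fell (401 to 1216 against 26.7 to 369). The median log2 difference of the neutrophil list was −5.28 there, with 5 of 7 at an unadjusted p under 0.05 (edgeR). DESeq2 called 5 of them as lower and 0 as higher. In allogeneic against syngeneic WT 0 of the 7 passed (median −0.27). Of 6 platelet markers 1 fell (5.51 to 8.08 against 2.23 to 5.33 CPM). Of the tested plasmacytoid dendritic cell markers 1 of 6 fell (77.4 to 85.5 against 75.5 to 91.8 CPM). None of the 7 tested conventional dendritic cell markers, 5 natural killer cell markers (11.3 to 16.9 against 10.7 to 12 CPM) or 8 T cell markers passed in syngeneic KO by edgeR's test, with 1, 3 and 0 at an unadjusted p under 0.05 and 0, 1 and 0 called by DESeq2. In allogeneic KO against WT no marker of these lists passed with edgeR or DESeq2, and 2 had an unadjusted p under 0.05, 1 of the B cell and 1 of the natural killer cell list. Their part in the levels of the members was likewise not tested.

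The genes most like the members were those with the highest Pearson r of log2 CPM over the 12 libraries, among genes outside the family with a mean of at least 1 CPM. For Apol11b they included Ypel4 (0.984), E130309D14Rik (0.982), Sowaha (0.981) and Smox (0.978). For Apol10a they were Bpgm (0.978), Smox (0.975), Ube2l6 (0.971), Mgst3 (0.968) and Sh3yl1 (0.968). Those of Apol8, added after the values were seen, were Fn3k (0.979), Mafk (0.977), Foxo3 (0.977), Gm29438 (0.977) and Rsad2 (0.969). The 12 points share 4 group means and include the 3 syngeneic WT libraries in which these members are high, so each r is a description only. Ypel4 stood at a mean of 35.7 CPM with Wapl intact and 0.46 without it in the syngeneic setting, and at 0.149 in allogeneic WT.

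Apol9b was most like Nfam1 (0.883), Plaur (0.862), Map3k9 (0.862), Pilra (0.854) and RP24-176P19.3 (0.84). None could be named for Apol7c, which did not pass the filter. Within the family, Apol11b had r = 0.979 with Apol10a, 0.982 with Apol11a, 0.892 with Apol8, 0.829 with Apol10b, 0.653 with Apol9b, 0.407 with Apol7b and 0.084 with Apol7e. Taken as deviations from the group means, r was 0.541 between Apol11b and Apol10a and −0.313 between Apol11b and Apol8, over the same 12 libraries.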

How the data were processed

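Gene-level expected counts, deposited by the authors for 46073 genes, were used as given and rounded to whole numbers (94.5 to 95.0% of the values in a library were already whole). Per the submitters' processing notes, the build was GRCm38 and the tools included Bowtie2 2.2.1, TopHat2 2.0.13, Cuffdiff 2.2.1 and Cufflinks. The counting tool, annotation, strand setting and handling of reads with several matches are not given in the sources used here, so reads of near-identical Apol genes may be shared out or lost. The 12 columns whose names match sample titles were used, and 6 prefixed columns that match no sample were not.

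All 12 libraries entered 1 fit with edgeR 4.0.16 (R 4.3.3 and limma 3.58.1), parametrised by group means, with TMM scaling, filterByExpr (count minimum 10) and a robust quasi-likelihood fit. Tests were two-sided, with Benjamini-Hochberg adjustment over 18447 genes and a threshold of 0.05. The standard error is the log2 difference divided by the square root of F. DESeq2 1.42.0, other scalings, no filter, a replicate block and leaving out each library were alternatives. The fit was tested on simulated data, with changes set in genes above 1 CPM. It recovered 51% of 2-fold and 94% of 4-fold changes, and 4.6% of its calls were false. Most members were below that level in the allogeneic libraries, so these shares do not cover them there. P-values measure the spread between pools of mice.

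All 10 members are named. Other genes are named if they carry an Apol symbol, lie within 500 kb, are among the 5 most alike, or are among the 3 of a list with the smallest p in a comparison. Fn1 and Mb are named because they overlap Apol genes, and Wapal as the targeted gene. For Apol11b, 1 of the 5 most alike is not reported here. Members, lists and tests were chosen with earlier results of these data known. The lists were interferon-stimulated, interferon gamma and NF-kB, interferon and receptor, other apolipoprotein, cohesin and 9 cell type marker lists.

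Replicate numbers are shared by the groups. Deviations of same-numbered syngeneic WT and KO libraries from their group means correlated at 0.545, 0.17 and 0.335, all over 0.1, so by the rule used the numbers were taken to pair these 2 groups, which the labels do not state. Differently numbered pairs ran from −0.501 to 0.363, and syngeneic WT replicate 2 correlated more with KO replicate 3 (0.363) than with KO replicate 2 (0.17). The correlations thus do not establish a pairing. Differences, standard errors and calls are from the fit without pairing, except where the replicate block or another alternative is named.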

Additional observations from a re-analysis of the deposited data

Results flagged for a closer look

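For 3 members the difference in KO effect between the transplant settings was past the threshold in edgeR's test of the interaction. On the log2 scale the KO difference after allogeneic minus that after syngeneic transplantation was 8.77 ± 0.99 (SE) for Apol10a, 7.56 ± 0.78 for Apol11b and 3.20 ± 0.59 for Apol8. The call of Apol8 was lost in 12 of 19 alternatives, including the replicate block (adjusted p = 0.0534), while those of Apol10a and Apol11b held in all 19. Of all tested genes 0.428% passed as higher in this test. It contains the comparison that chose the family, so these values are a description. They repeat the high syngeneic WT levels of Apol10a (5.2 to 13.2 CPM), Apol11b (44 to 97.7 CPM) and Apol8 (15.4 to 33.9 CPM). The 11 red cell precursor markers moved alike, 7 of them passing as higher, and their part was not tested.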

How the results depend on the processing

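Of the counts of members called, 71 values under alternatives stayed within 1.5 times the reported count and 5 did not. The 5 all concern allogeneic against syngeneic KO, reported as 1 member. DESeq2 called 2 (Apol7c and Apol8), and leaving out 1 library gave 0 to 1. Leaving out 1 library gave 3 to 4 calls in syngeneic KO, 4 to 5 in allogeneic against syngeneic WT, 2 to 3 in the interaction and 0 to 0 in allogeneic KO. The replicate block took the interaction of Apol8 to 3.28 ± 0.59, which no longer passed the threshold. For Apol10b the syngeneic KO difference, which chose the family, was −1.08 with the replicate block on all 12 libraries, −1.11 in the 6 syngeneic libraries alone and −1.09 in these 6 with the replicate block, a setting added after the data were seen. Only the last of 15 alternatives passed the threshold, and nothing is read from it. Over all genes, calls went from 622 to 626 with the block on 12 libraries, and from 349 to 1287 with the block within the 6. The block changed no other call of a member. DESeq2 called 1009 genes in syngeneic KO and 77 in allogeneic KO, against 622 and 10.

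No called value changed sign. Uncalled values that did so on leaving out 1 library ranged from −0.52 to 0.02 for Apol7b in syngeneic KO. In allogeneic KO they ranged from −0.44 to 1.12 for Apol10a, −0.81 to 0.03 for Apol8, −0.70 to 0.13 for Apol7b and −0.12 to 0.47 for Apol11b. For Apol11b in allogeneic against syngeneic KO the range was −0.27 to 0.97. The interaction of Apol7b was 0.22 with the replicate block and −0.43 to 0.40 on leaving out 1 library. Scaling by library size alone moved the median of all genes by −0.15 in syngeneic KO and −0.14 in allogeneic KO. The causes were not tested. Apol6, Apol7a and Apol9a, under about 10 counts in every library, could not be compared at this depth. Where another member had so few in a compared group, the size of its difference is uncertain. Such values are given as a description.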
